A study of Mus musculus with 36 samples.

Results

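The mitochondrial genome and its nuclear copies were followed through RNA sequencing libraries from mouse hearts. The 31 genes were chosen by position and name: the 28 genes that the deposited table places on chromosome MT, and Gm10925, Gm28437 and Gm28661, which are annotated as unprocessed pseudogenes on chromosome 1. They are 31 of the 25626 genes listed. The 28 comprise the 13 protein-coding genes, both ribosomal RNAs and 13 of the 22 annotated tRNA genes; the other tRNA genes were not analysed here. Each of 36 mice gave 1 library from the whole heart, with 6 mice in each of 6 groups. Tg-TAC-MQ mice carried the cSirt4-Tg genotype and had transverse aortic constriction (TAC), an operation that constricts the aorta so that the left ventricle pumps against a higher load, with MitoQ, an antioxidant that accumulates in mitochondria. Con-TAC-MQ mice were of the Control genotype and had the same surgery with MitoQ. Tg-TAC mice (cSirt4-Tg) and Con-TAC mice (Control) had TAC with vehicle. Tg-Sham mice (cSirt4-Tg) and Con-Sham mice (Control) had sham surgery with vehicle. The promoter and the cell type that drive the transgene, the age of the mice and the time after surgery are not stated in the labels. The series asks by which pathways reactive oxygen species of mitochondria may aggravate heart disease in cSirt4-Tg mice.

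The mitochondrial genome is a small circle that is transcribed from both strands into long precursors. The tRNAs lie between most of the messenger and ribosomal RNAs, and their excision frees the RNAs beside them. The proteins it encodes are subunits of respiratory complexes I, III and IV and of the ATP synthase, and heart muscle is among the tissues richest in these transcripts. Stretches of mitochondrial DNA have been copied into nuclear chromosomes in many species, and such copies can be so alike that a short read fits both places.

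The recovered reads numbered 14.8 M to 60.01 M per library (median 28.4 M), and mitochondrial genes took 13.1% to 27.9% of a library's total. The 95% Wilson interval of such a share reached 0.0105 to 0.0188 percentage points to either side, which covers counting error only. Within groups, libraries correlated at r = 0.874 to 0.990 across genes. Sirt4, the gene in the genotype label, did not pass the test as higher in libraries labelled cSirt4-Tg: it averaged 362 ± 57.8 in Tg-TAC and 341 ± 49.6 in Con-TAC (SD, n = 6 each; log2 difference 0.09, limma adjusted p = 0.671), and 377 ± 48.0 in Tg-Sham and 412 ± 96.6 in Con-Sham (-0.11, limma adjusted p = 0.739). It averaged 349 ± 22.5 in Tg-TAC-MQ and 353 ± 18.6 in Con-TAC-MQ (-0.02). The groups are therefore called by their labels. Each library name also carries a number of unstated meaning. The 12 MitoQ libraries and Con-TAC 6 have 20 or 21. The number is 7 to 14 in 5 Con-TAC, 5 Tg-TAC, 3 Tg-Sham and 3 Con-Sham libraries, and 29 to 31 in the remaining ones. MitoQ and this number cannot be told apart.

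The nuclear copies lie in a row, and their order is that of the mitochondrial genes. On chromosome 1 of mm39, between 24650616 and 24655278 on the minus strand, 7 annotated pseudogenes span 4663 bases, and they pair with 4662 bases of the mitochondrial genome, from position 6381 to 11042. Gm28661, at 24653966 to 24654646, is a copy of mt-Co2. Gm10925, at 24653055 to 24653732, is a copy of mt-Atp6, and Gm28437, at 24652270 to 24653052, is a copy of mt-Co3. The neighbours Gm29216, Gm28438, Gm10222 and Gm28439 pair with mt-Co1, mt-Nd3, mt-Nd4l and mt-Nd4. The position on chromosome 1 and the position on MT add up to the same number in 5 of the 7 pairs and to 1 base less in 2 pairs.

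The sequences are shown because they decide what a read of these genes can tell. They are read 5′ to 3′ from the transcripts of GENCODE release M21, matched by gene name, and all 36 compared genes have the length given in the deposited table. The 120 bases that open mt-Atp6 and Gm10925 are the same.
mt-Atp6: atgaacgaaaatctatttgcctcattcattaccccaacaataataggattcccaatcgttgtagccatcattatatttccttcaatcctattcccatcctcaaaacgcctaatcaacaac
Gm10925: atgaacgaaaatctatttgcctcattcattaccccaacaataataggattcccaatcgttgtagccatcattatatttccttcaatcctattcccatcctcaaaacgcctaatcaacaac

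The 3 pairs of members have no differing base along the copy: 681 of the 684 bases of mt-Co2, 678 of the 681 of mt-Atp6 and 783 of the 784 of mt-Co3. The compared copies end where their annotation stops, and the genomic bases past that end were not read. The capitals mark the bases of the mitochondrial gene past the annotated end of the copy. TAA is the stop codon, and the single T of mt-Co3 is the part of a stop codon that the genome encodes.
mt-Co2, last 60 bases: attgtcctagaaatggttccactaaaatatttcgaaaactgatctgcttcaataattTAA
Gm28661, its last bases: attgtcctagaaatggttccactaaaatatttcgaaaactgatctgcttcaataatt
mt-Atp6, last 60 bases: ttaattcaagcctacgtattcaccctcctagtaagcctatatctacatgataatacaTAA
Gm10925, its last bases: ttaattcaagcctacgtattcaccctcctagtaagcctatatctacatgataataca
mt-Co3, last 60 bases: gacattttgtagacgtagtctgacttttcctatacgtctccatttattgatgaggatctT
Gm28437, its last bases: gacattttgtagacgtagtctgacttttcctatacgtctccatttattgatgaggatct

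Gm10222 and Gm28439 were also free of differences from mt-Nd4l (294 of 297 bases) and from the first 876 of the 1378 bases of mt-Nd4. Only 2 of the 7 pairs differed within the aligned part. Gm28438 differs from mt-Nd3 by T3C over 345 bases, and Gm29216 differs from bases 1054 to 1113 of mt-Co1 by T1056A, C1057T, A1059G, A1060G, C1062A and A1066T, with positions counted from 1 at the 5′ end of the mitochondrial gene and the mitochondrial base given first. After the last of these, 479 bases of Gm29216 and mt-Co1 are the same. Capitals mark the differing bases.
mt-Nd3, first 60 bases: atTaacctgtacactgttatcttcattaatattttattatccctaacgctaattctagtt
Gm28438, first 60 bases: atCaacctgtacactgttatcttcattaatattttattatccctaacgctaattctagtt
mt-Co1, bases 1054 to 1113: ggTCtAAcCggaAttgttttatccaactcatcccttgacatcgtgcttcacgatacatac
Gm29216, first 60 bases: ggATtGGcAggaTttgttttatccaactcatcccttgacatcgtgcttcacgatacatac

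Inside the copied stretch the mitochondrial genes were listed at a tiny part of the level seen outside it. Per kilobase of gene and as a mean over the 36 libraries, the 6 protein-coding genes that lie wholly inside (mt-Co2, mt-Atp8, mt-Atp6, mt-Co3, mt-Nd3 and mt-Nd4l) had 10.5 to 523 normalized counts. The 5 that lie wholly outside (mt-Nd1, mt-Nd2, mt-Nd5, mt-Nd6 and mt-Cytb) had 21432 to 930351 per kilobase. The genes that lie partly inside kept high levels, with 1368187 per kilobase for mt-Co1 and 340052 for mt-Nd4. In all, the 6 inside genes made up 0.00586% to 0.0203% of the mitochondrial total of a library. Of the copies, Gm28661 had 99.1% to 184% of the count of mt-Co2, Gm10925 180% to 444% of mt-Atp6 and Gm28437 153% to 283% of mt-Co3. Of the other pairs, the mean of Gm10222 was 1190% of that of mt-Nd4l and the mean of Gm28438 was 19297% of that of mt-Nd3, whereas Gm29216 and Gm28439 had 0.0228% and 0.0327% of mt-Co1 and mt-Nd4, which lie only partly inside. Per kilobase, the copies Gm28437, Gm10925 and Gm28661 had 501, 504 and 644. Gene and copy were thus both low beside mt-Co1 and mt-Nd4. The labels do not state how reads that fit several places were counted, and the part of this rule was not tested. Counts of the inside genes and of the copies are therefore uncertain as measures of either source. This holds for their level, and the split between them cannot be told apart.

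**Figure D1:**
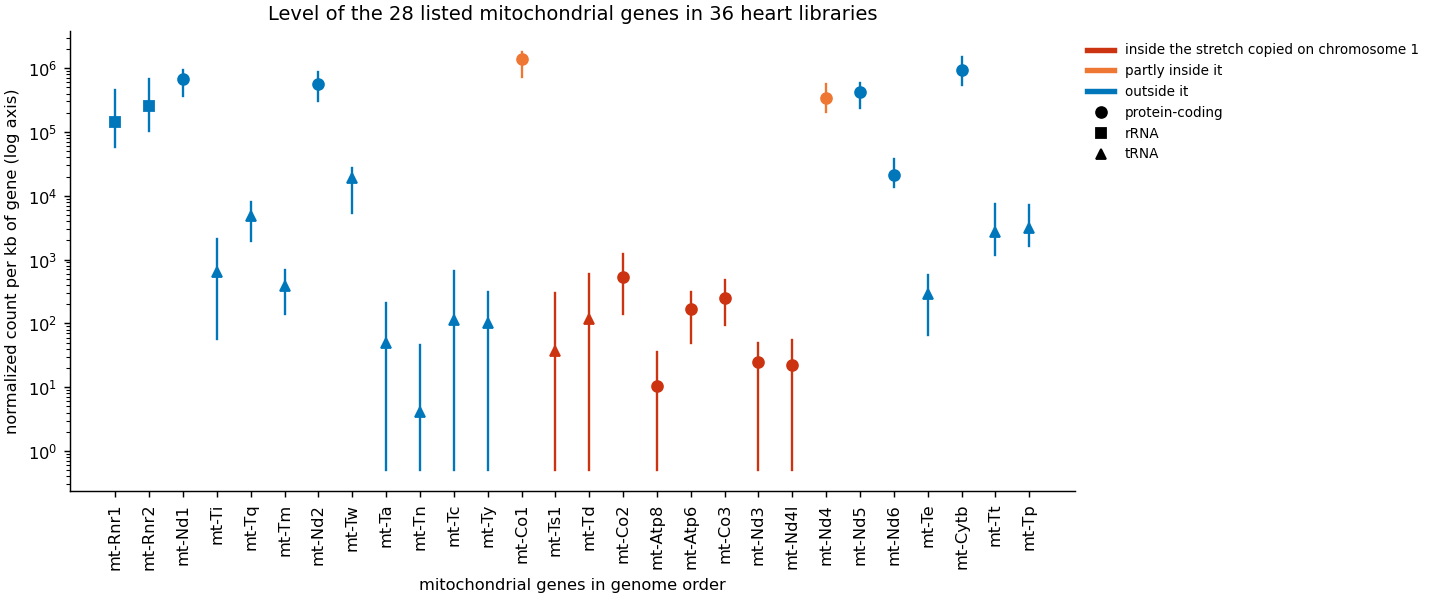
Mean normalized count per kilobase of gene over 36 libraries (log axis), for the mitochondrial genes in genome order. Bars run from the lowest to the highest library, with zeros drawn at 0.5. The protein-coding genes inside the copied stretch sit at 10.5 to 523 per kilobase, beside 21432 to 930351 for those wholly outside.

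The subunit I gene of complex IV, mt-Co1, had the highest mean of all 25626 listed genes, at 2113849 normalized counts. mt-Cytb, the mitochondrial subunit of complex III, ranked 3rd at 1064322. Of the complex I subunits, mt-Nd5 ranked 5th (758053), mt-Nd1 6th (651522), mt-Nd2 7th (590302) and mt-Nd4 8th (468591). The large ribosomal RNA mt-Rnr2 ranked 9th (401409) and the small ribosomal RNA mt-Rnr1 19th (136329). mt-Nd6, the protein-coding gene on the other strand, averaged 11123, and it overlaps mt-Nd5 by position. Inside the copied stretch, mt-Co2 averaged 358, mt-Co3 197, mt-Atp6 112, mt-Nd3 8.50, mt-Nd4l 6.59 and mt-Atp8 2.15, and the copies Gm28661, Gm28437 and Gm10925 averaged 439, 392 and 342. The tRNA genes with the highest means were mt-Tw (1260), mt-Tq (346) and mt-Tp (210), for tryptophan, glutamine and proline. mt-Tw overlaps mt-Nd2 by position on the same strand. Reads of mt-Nd2 or of a precursor in its count cannot be told from those of the tRNA. Of the 31 genes, 27 passed the filter of at least 10 normalized counts in at least 6 libraries: 12 messenger RNAs, both ribosomal RNAs, 10 tRNAs and the 3 copies. mt-Atp8, mt-Ta, mt-Tn and mt-Ts1 did not pass, and mt-Tn was above 0 in 6 libraries. The 67 bases of mt-Tw are printed because this tRNA gene was called in 3 comparisons.
mt-Tw, whole gene: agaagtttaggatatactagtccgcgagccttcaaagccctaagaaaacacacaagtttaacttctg

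The share of mitochondrial reads had its lowest mean in Tg-TAC. It averaged 20.7% ± 1.08 in Tg-TAC-MQ, 21.2% ± 2.49 in Con-TAC-MQ, 17.1% ± 2.35 in Tg-TAC, 22.5% ± 2.85 in Con-TAC, 21.9% ± 3.55 in Tg-Sham and 22.7% ± 2.86 in Con-Sham (SD, n = 6 each). Tg-TAC libraries ran from 13.1% over a median of 17.6% to 19.6%, against 17.3%, 23.4% and 24.9% in Con-TAC, so the groups overlapped. Tg-TAC-MQ libraries, at 19.5% to 22.6%, overlapped the Tg-TAC libraries only in a narrow range. These shares are descriptions without a test. The difference of means was -5.39 percentage points for Tg-TAC minus Con-TAC, -4.77 for Tg-TAC minus Tg-Sham and 3.67 for Tg-TAC-MQ minus Tg-TAC. For Con-TAC minus Con-Sham it was -0.22, and among libraries named 7 to 14 it was 2.94; among those, Tg-TAC minus Con-TAC was -6.75. In tissue, fewer cardiomyocytes and less mitochondrial RNA per cell cannot be told apart. The ribosomal part behaved unlike the whole. mt-Rnr1 and mt-Rnr2 together took 1.19% ± 0.146 of the total in Tg-TAC-MQ, 1.32% ± 0.254 in Con-TAC-MQ, 1.25% ± 0.484 in Tg-TAC and 1.34% ± 0.234 in Con-TAC, against 2.49% ± 0.570 in Tg-Sham and 3.12% ± 0.838 in Con-Sham. As a part of the mitochondrial reads they made up 5.75%, 6.20%, 7.42% and 5.95% in these 4 TAC groups, and 11.8% and 13.9% in the sham groups.

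**Figure D2:**
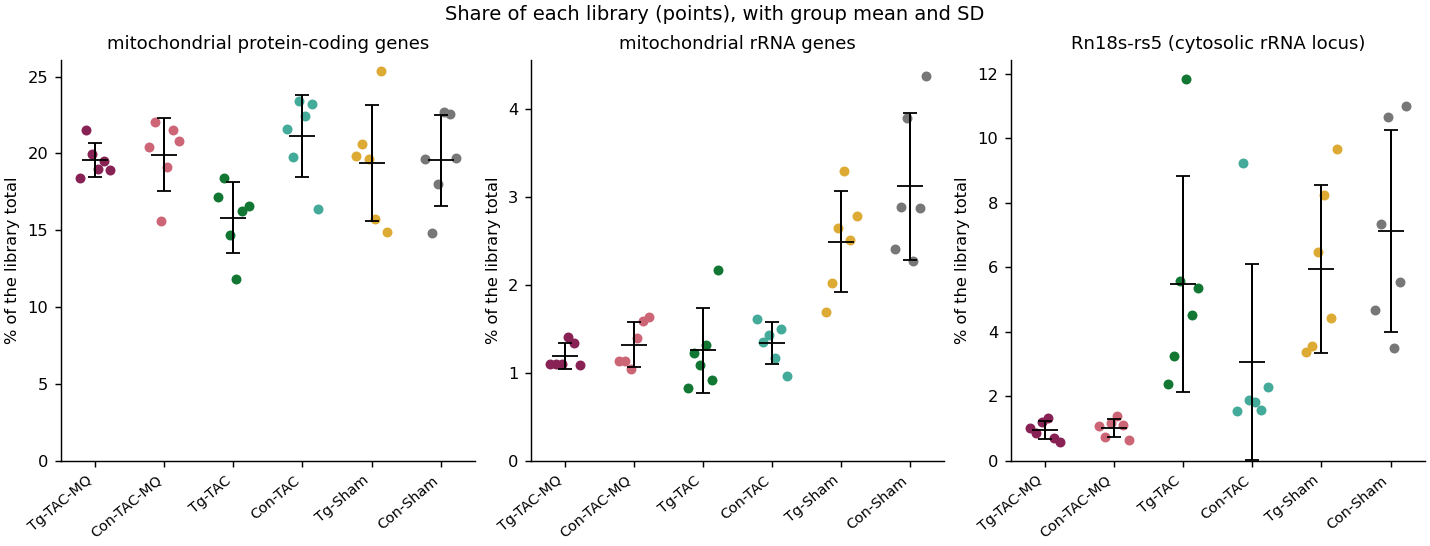
Percentage of each library's total in mitochondrial messenger RNA, mitochondrial ribosomal RNA and Rn18s-rs5, a nuclear ribosomal RNA locus, by group, with 1 point per library and bars for mean ± SD (n = 6). Mitochondrial ribosomal RNA averages 1.19% to 1.34% in the TAC groups, beside 2.49% and 3.12% in the sham groups.

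To see what pressure load did in Control hearts, Con-TAC was set against Con-Sham. Both mitochondrial ribosomal RNAs fell, and no mitochondrial messenger RNA, tRNA or copy passed the test. mt-Rnr1, the RNA of the small ribosomal subunit, had 60439, 110057 and 118349 normalized counts in Con-TAC (lowest, median and highest library), against 180968, 236109 and 433052 in Con-Sham. mt-Rnr2, the RNA of the large subunit, had 195232, 317450 and 380719 in Con-TAC, against 528141, 683598 and 1076425 in Con-Sham. For both RNAs every Con-TAC library lay below every Con-Sham library. The log2 difference was -1.40 ± 0.23 for mt-Rnr1 and -1.28 ± 0.21 for mt-Rnr2 (SE; limma adjusted p = 0.00107 and 0.00111), or 0.379 and 0.413 times the level. Of the 24 mitochondrial genes tested, 2 were called, both lower, where 5.3% of all 16275 genes tested were called, 2.65% lower and the same share higher. The messenger RNAs showed no shift in the middle: the median log2 difference of the 12 was 0.01, and mt-Co1 averaged 2355654 ± 365767 in Con-TAC and 2352458 ± 293564 in Con-Sham. The 3 copies had log2 differences of -0.47 (Gm28661), -0.03 (Gm10925) and 0.18 (Gm28437), and none passed (limma; 1 of 3 at an unadjusted p under 0.05, none by edgeR or DESeq2). Among libraries named 7 to 14, the differences were -1.20 for mt-Rnr1 and -1.14 for mt-Rnr2 (limma adjusted p = 0.0439 and 0.0299). Other structural RNAs moved with them: Rn7sk, a small nuclear RNA, averaged 66.9 in Con-TAC and 4568 in Con-Sham (log2 -6.03, limma adjusted p = 7.91e-12), and Rn18s-rs5 took 1.55% to 2.27% of the total in 5 Con-TAC libraries and 9.22% in Con-TAC 2, against a lowest of 3.50% and a median of 6.43% in Con-Sham (log2 difference of its count -1.57, limma adjusted p = 0.0187). Of the 6 erythroid markers 5 rose and of the 10 fibroblast markers 2 rose, where the summed erythroid level was 3737 to 8415 per Con-TAC library, against 1448 to 4401 per Con-Sham library. The labels do not state whether poly(A) RNA was selected, and the part of these differences in the result was not tested.

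In cSirt4-Tg hearts, TAC went with lower ribosomal RNAs and, beside them, with lower counts of some messenger RNAs and of all 3 copies. Tg-TAC against Tg-Sham gave 8 lower calls among 24 mitochondrial genes and none higher, where 16.7% of all genes tested were called, 8.77% lower and 7.91% higher. mt-Rnr1 had 54653, 74565 and 158079 in Tg-TAC (lowest, median, highest), against 121267, 216207 and 277377 in Tg-Sham, with a log2 difference of -1.28 ± 0.23. mt-Rnr2 had 163471, 239701 and 509984 in Tg-TAC, against 367835, 583114 and 718997 in Tg-Sham, with -1.12 ± 0.21. Both passed (limma adjusted p = 0.000956 and 0.00134). The groups overlapped through Tg-TAC 6, which held the highest Tg-TAC value of mt-Rnr2. Tg-TAC 6 is also the only TAC library with a name number of 29 to 31, which 3 Tg-Sham libraries carry. The part of the name number was not tested. Rn7sk moved here too, with 139.7 in Tg-TAC and 2981 in Tg-Sham (log2 -4.52, limma adjusted p = 2.25e-08), while Rn18s-rs5 did not pass (-0.32, limma adjusted p = 0.607). Their part in the result was not tested.

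The other lower calls of Tg-TAC against Tg-Sham were mostly genes inside the copied stretch, whose counts are uncertain as measures of gene or copy. mt-Co2, subunit II of complex IV, had 95.2, 151 and 410 normalized counts in Tg-TAC, against 330, 362 and 648 in Tg-Sham (log2 -1.12 ± 0.24). mt-Co3, subunit III of complex IV, had 73.7, 104 and 227 in Tg-TAC, against 147, 194 and 331 in Tg-Sham (-0.88 ± 0.22). mt-Atp6, a subunit of the ATP synthase, had 34.1, 61.5 and 119 in Tg-TAC, against 101, 112 and 199 in Tg-Sham (-0.87 ± 0.23). In each of these genes the groups overlapped, with most Tg-TAC libraries below every Tg-Sham library, and the limma adjusted p was 0.00316, 0.00644 and 0.00908. mt-Nd4l, of complex I, was listed at 0 to 4.62 in Tg-TAC and 2.44 to 13.5 in Tg-Sham (-1.74 ± 0.45, limma adjusted p = 0.00875), a level of few reads. Outside the stretch mt-Nd5, also of complex I, fell by 0.56 on the log2 scale (limma adjusted p = 0.0233; 551967 in the median Tg-TAC library and 796665 in the median Tg-Sham library), and lost the call without Tg-Sham 5, Tg-TAC 3 or Tg-TAC 4 (adjusted p = 0.0551 to 0.0642). mt-Tw had 357, 798 and 1562 in Tg-TAC, against 1245, 1397 and 1813 in Tg-Sham (-0.94 ± 0.20, limma adjusted p = 0.00272). The copies fell with them. Gm28661 had 154, 208 and 418 in Tg-TAC, against 456, 510 and 791 in Tg-Sham, with no overlap (-1.24 ± 0.20). Gm10925 (-1.16 ± 0.21) and Gm28437 (-1.12 ± 0.23) fell as well, and the 3 limma adjusted p were 0.000366, 0.000789 and 0.00203. With a spread estimated from these 12 libraries alone, 2 mitochondrial genes (the ribosomal RNAs) and the 3 copies stayed past the threshold.

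**Figure D3:**
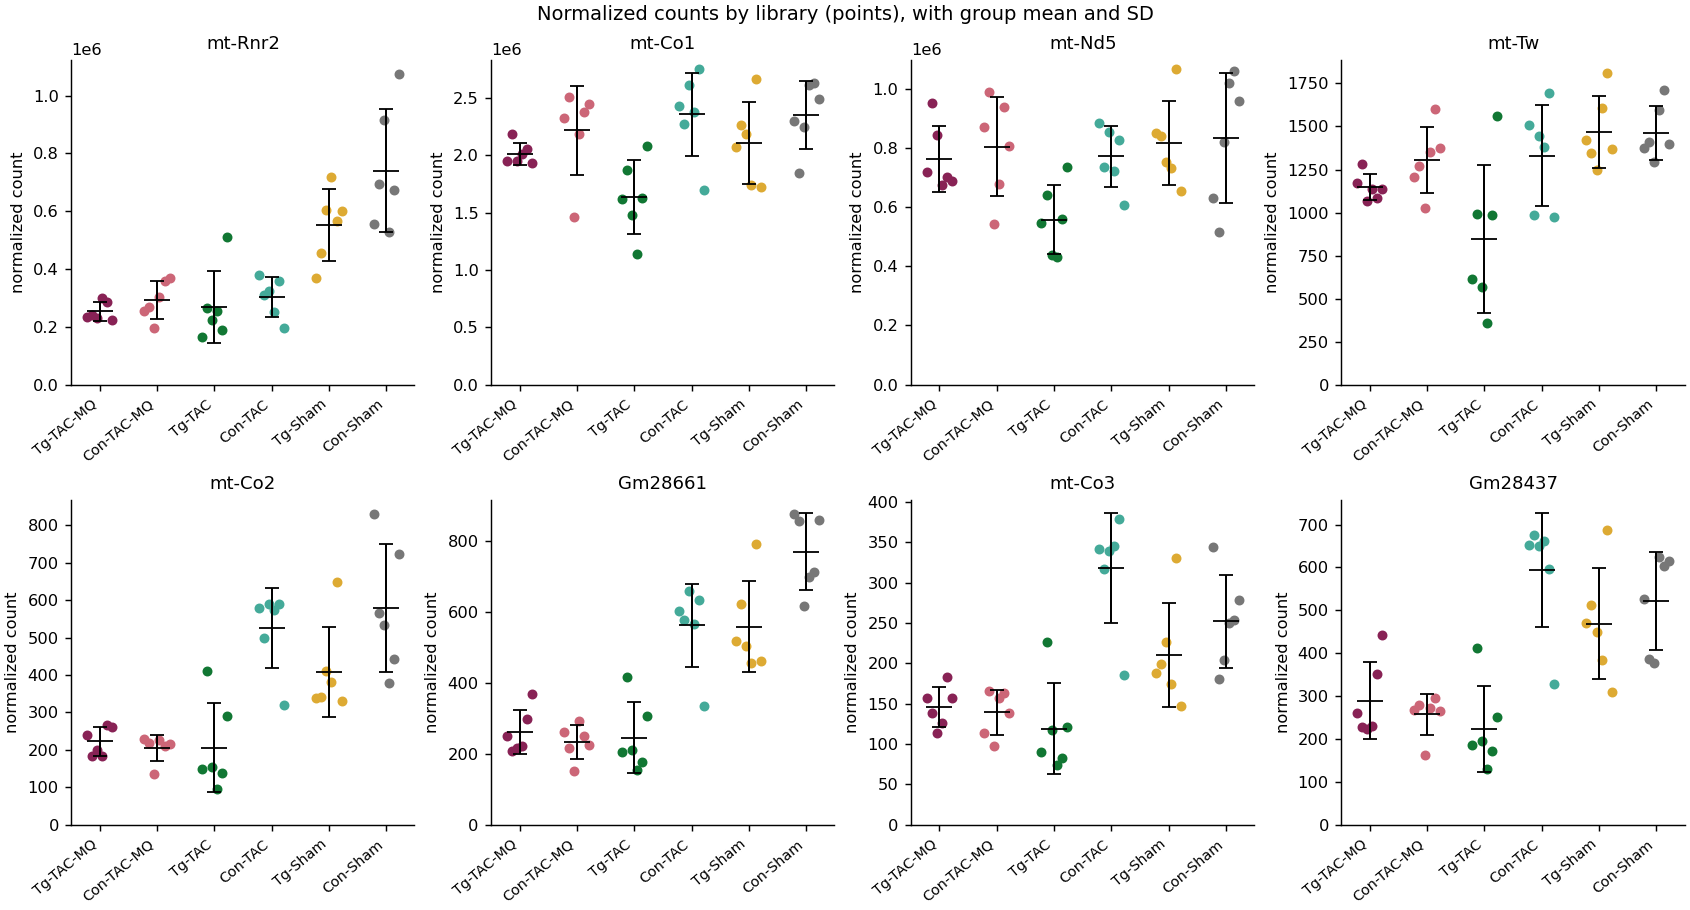
Normalized counts of 8 genes in every library (linear axis), with groups in the order Tg-TAC-MQ, Con-TAC-MQ, Tg-TAC, Con-TAC, Tg-Sham, Con-Sham. mt-Rnr2 averages 253089 to 303339 in the TAC groups, beside 551870.1 and 740847 in the sham groups, while mt-Co2 averages 223, 206 and 206 in Tg-TAC-MQ, Con-TAC-MQ and Tg-TAC, beside 525, 409 and 579 in Con-TAC, Tg-Sham and Con-Sham.

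The genotype label alone, in sham hearts, went with no call. Tg-Sham against Con-Sham had 0 of 24 mitochondrial genes and 0 of 3 copies past the threshold, where 0.873% of all genes tested were called, 0.786% higher and 0.086% lower (limma; 1 mitochondrial gene, mt-Co2, and 1 copy, Gm28661, at an unadjusted p under 0.05; 0 by edgeR and DESeq2). The median log2 difference of the 24 was -0.16, beside 0.00 over all genes tested. mt-Rnr1 averaged 202198 ± 56375 in Tg-Sham and 276782 ± 106909 in Con-Sham, and Gm28661 averaged 559 ± 129 in Tg-Sham and 770 ± 109 in Con-Sham. Of the 10 macrophage markers 7 rose in this comparison.

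After TAC with vehicle, libraries labelled cSirt4-Tg had lower counts of the genes in the copied stretch and of the copies. These counts are uncertain as measures of either source, and calls of a gene and its copy are not separate results. Counts of several abundant messenger RNAs were somewhat lower. Tg-TAC against Con-TAC gave 10 lower calls among 24 mitochondrial genes and 3 lower calls among 3 copies, where 6.48% of all genes tested were called, 3.29% lower and 3.19% higher. All 12 messenger RNAs tested had negative log2 differences, with a median of -0.64, beside 0.00 over all genes. The ribosomal RNAs did not pass, and mt-Rnr2 averaged 267605 ± 124724 in Tg-TAC and 303339 ± 69170.5 in Con-TAC. mt-Co2 had 95.2, 151 and 410 in Tg-TAC, against 320, 576 and 591 in Con-TAC (log2 -1.49 ± 0.24). mt-Co3 had 73.7, 104 and 227 in Tg-TAC, against 185, 340 and 379 in Con-TAC (-1.49 ± 0.22). mt-Atp6 had 34.1, 61.5 and 119 in Tg-TAC, against 91.7, 186 and 208 in Con-TAC (-1.31 ± 0.23). The groups overlapped where Tg-TAC 2, the highest of its group in each of these genes, passed Con-TAC 6, the lowest of its group, and for mt-Atp6 Tg-TAC 6 passed it as well. The limma adjusted p was 0.000812, 0.000348 and 0.00175. mt-Nd4l was listed at 0 to 4.62 in Tg-TAC and 5.53 to 16.3 in Con-TAC, without overlap (-2.01 ± 0.45, limma adjusted p = 0.0130). It rests on few reads and passed the filter only through libraries outside Tg-TAC, so this lower call leans on the filter.

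The 3 copies fell too. Gm28661 had 154, 208 and 418 in Tg-TAC, against 334, 590 and 660 in Con-TAC (log2 -1.25 ± 0.20). Gm10925 had 135, 163 and 346 in Tg-TAC, against 331, 505 and 579 in Con-TAC (-1.41 ± 0.21). Gm28437 had 129, 190 and 412 in Tg-TAC, against 328, 650.5 and 675 in Con-TAC (-1.46 ± 0.23). Their limma adjusted p was 0.000752, 0.000348 and 0.000752, and again Tg-TAC 2 and Con-TAC 6 made the groups overlap. Outside the stretch the differences were smaller. mt-Co1 had 1140166, 1625553 and 2078891 in Tg-TAC, against 1696700.1, 2403342 and 2749722 in Con-TAC (-0.53 ± 0.15, limma adjusted p = 0.0318). The complex I subunits mt-Nd1 (-0.54), mt-Nd2 (-0.63) and mt-Nd4 (-0.66) fell too (limma adjusted p = 0.0385, 0.0318 and 0.0387), while mt-Cytb (-0.48) and mt-Nd5 (-0.48) did not pass (limma adjusted p = 0.0601 and 0.0716). Of the tRNA genes, mt-Tw (-0.78) and mt-Tt (-0.77), for threonine, had lower counts (limma adjusted p = 0.0232 and 0.0337). mt-Tt starts at the base after mt-Cytb ends. In both counts, reads of a neighbour or precursor cannot be told from those of the tRNA. These smaller calls leaned on single libraries. Leaving out 1 of the 12 at a time lost mt-Co1 in 7 of 12 fits, mt-Nd1 and mt-Nd4 in 9 and mt-Nd2 in 8. mt-Tt was lost in 6 and mt-Tw in 5. By contrast, mt-Co2, mt-Co3, mt-Atp6 and the copies stayed called in all 12. mt-Nd4l did too, but its Tg-TAC values rest on few reads and it passed the filter through other groups. With a spread estimated from these 12 libraries alone no mitochondrial gene or copy passed (limma adjusted p = 0.0915 for mt-Co3, Gm10925 and Gm28437). Among libraries named 7 to 14, 17 of 24 mitochondrial genes passed, but the share of all genes called there was not counted. That subset lacks Con-TAC 6 and Tg-TAC 6, and leaving out Tg-TAC 6 alone gave 14.

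Markers of other cells moved in the same comparison, where 3.29% of all genes tested were called lower and 3.19% higher. Of the 12 cardiomyocyte markers 2 fell, with summed levels of 1285161 to 2867068 in Tg-TAC and 1528514 to 2799149 in Con-TAC. Of the 10 macrophage markers 7 rose (8728 to 22037 in Tg-TAC and 7921 to 11575 in Con-TAC) and of the 10 fibroblast markers 3 rose (76535 to 178070.0 in Tg-TAC and 57234 to 109117 in Con-TAC). Against Tg-Sham, 5 of the 12 cardiomyocyte markers fell in Tg-TAC and 5 of the 10 fibroblast markers rose. In that comparison 8.77% of all genes tested were called lower and 7.91% higher. No cardiomyocyte, fibroblast, macrophage or endothelial marker was at 0 in any library, and 1 erythroid marker was at 0 in some sham libraries. The part of these cells in the mitochondrial differences was not tested.

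MitoQ in Control TAC hearts went with lower counts of the genes in the copied stretch. These counts are uncertain as measures of gene or copy. A gene and its copy share their sequence, so their calls are not separate results. Con-TAC-MQ against Con-TAC gave 4 lower calls among 24 mitochondrial genes and 3 lower calls among 3 copies, where 3.23% of all genes tested were called, 1.31% lower and 1.92% higher. mt-Co2 had 136, 217 and 228 in Con-TAC-MQ, against 320, 576 and 591 in Con-TAC (log2 -1.34 ± 0.24), and mt-Co3 had 96.9, 147 and 166 in Con-TAC-MQ, against 185, 340 and 379 in Con-TAC (-1.18 ± 0.22). Neither gene overlapped between the groups (limma adjusted p = 0.00391 for both). mt-Atp6 (-1.04, limma adjusted p = 0.0132) and mt-Tt (-1.09, limma adjusted p = 0.00818) fell too, and mt-Atp6 lost the call without Con-TAC 4 (adjusted p = 0.0544). Gm28661 had 151, 238 and 293 in Con-TAC-MQ, against 334, 590 and 660 in Con-TAC (-1.26 ± 0.20). Gm10925 had 138, 220 and 265 in Con-TAC-MQ, against 331, 505 and 579 in Con-TAC (-1.17 ± 0.21), and Gm28437 had 163, 270 and 296 in Con-TAC-MQ, against 328, 650.5 and 675 in Con-TAC (-1.19 ± 0.23). None of the 3 copies overlapped between the groups, a separation that was not counted over all genes tested. The limma adjusted p was 0.00078, 0.003 and 0.00525. No abundant messenger RNA passed: mt-Co1 averaged 2217047 ± 385934 in Con-TAC-MQ and 2355654 ± 365767 in Con-TAC. Rn18s-rs5 was also lower, without overlap (-1.36, 285404 in Con-TAC-MQ and 930907 in Con-TAC, limma adjusted p = 0.0429), and its part was not tested. The library name number moved with this comparison, since all Con-TAC-MQ libraries are named 20 or 21 and 5 of 6 Con-TAC libraries 7 to 14. The single Con-TAC library named 20, Con-TAC 6, was the lowest of Con-TAC, with 320 for mt-Co2, 334 for Gm28661, 331 for Gm10925 and 328 for Gm28437. With the class of the number in the fit, the differences were -0.54 for Gm28661, -0.63 for Gm10925 and -0.38 for Gm28437. That fit rests on Con-TAC 6, the only library without MitoQ named 20 or 21, so it cannot tell MitoQ from the number.

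In cSirt4-Tg TAC hearts, MitoQ went with few differences in these genes. Tg-TAC-MQ against Tg-TAC gave 2 higher calls among 24 mitochondrial genes and 0 among 3 copies, where 17.3% of all genes tested were called, 9.89% higher and 7.44% lower. The 2 higher calls are near the share of all genes called higher, and 0 mitochondrial genes were called lower. mt-Tw had 1069, 1136 and 1280 in Tg-TAC-MQ, against 357, 798 and 1562 in Tg-TAC (log2 0.59 ± 0.20, limma adjusted p = 0.0361). mt-Nd4l was listed at 3.29 to 6.51 in Tg-TAC-MQ and 0 to 4.62 in Tg-TAC (1.31 ± 0.45, limma adjusted p = 0.0396), all below the filter's 10. Neither call holds firmly. Leaving out 1 library at a time gave 0 to 4 calls. It gave 0 without Tg-TAC 3 or 4 or Tg-TAC-MQ 1, 2, 4 or 6. It gave 1 without Tg-TAC 1 or 5 or Tg-TAC-MQ 5, and 4 without Tg-TAC 6. edgeR called 0 and DESeq2 1. mt-Co1 averaged 2013492 ± 95392 in Tg-TAC-MQ and 1637297 ± 323479 in Tg-TAC (0.32, limma adjusted p = 0.129), and mt-Nd5 averaged 762838 ± 110028 in Tg-TAC-MQ and 558019 ± 117372 in Tg-TAC (0.47, limma adjusted p = 0.0541). Gm28661 averaged 261 ± 62.7 in Tg-TAC-MQ and 246 ± 99.3 in Tg-TAC. No copy had an unadjusted p under 0.05 here, nor was any called by edgeR or DESeq2. Other structural RNAs moved without overlap: Rn18s-rs5 averaged 258686 in Tg-TAC-MQ and 1514586 in Tg-TAC (-2.43, limma adjusted p = 0.000179), and Rn7sk averaged 31.1 in Tg-TAC-MQ and 139.7 in Tg-TAC (-1.87, limma adjusted p = 0.00272). Their part was not tested. Between the MitoQ groups, Tg-TAC-MQ against Con-TAC-MQ, 0 of 24 genes and 0 of 3 copies were called by limma, edgeR or DESeq2, none had an unadjusted p under 0.05, and 0.0737% of all genes tested were called, 0.0492% higher and 0.0246% lower. mt-Co2 averaged 223 ± 38.3 in Tg-TAC-MQ and 206 ± 34.8 in Con-TAC-MQ, and Gm28661 averaged 261 ± 62.7 in Tg-TAC-MQ and 233 ± 48.6 in Con-TAC-MQ.

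**Figure D4:**
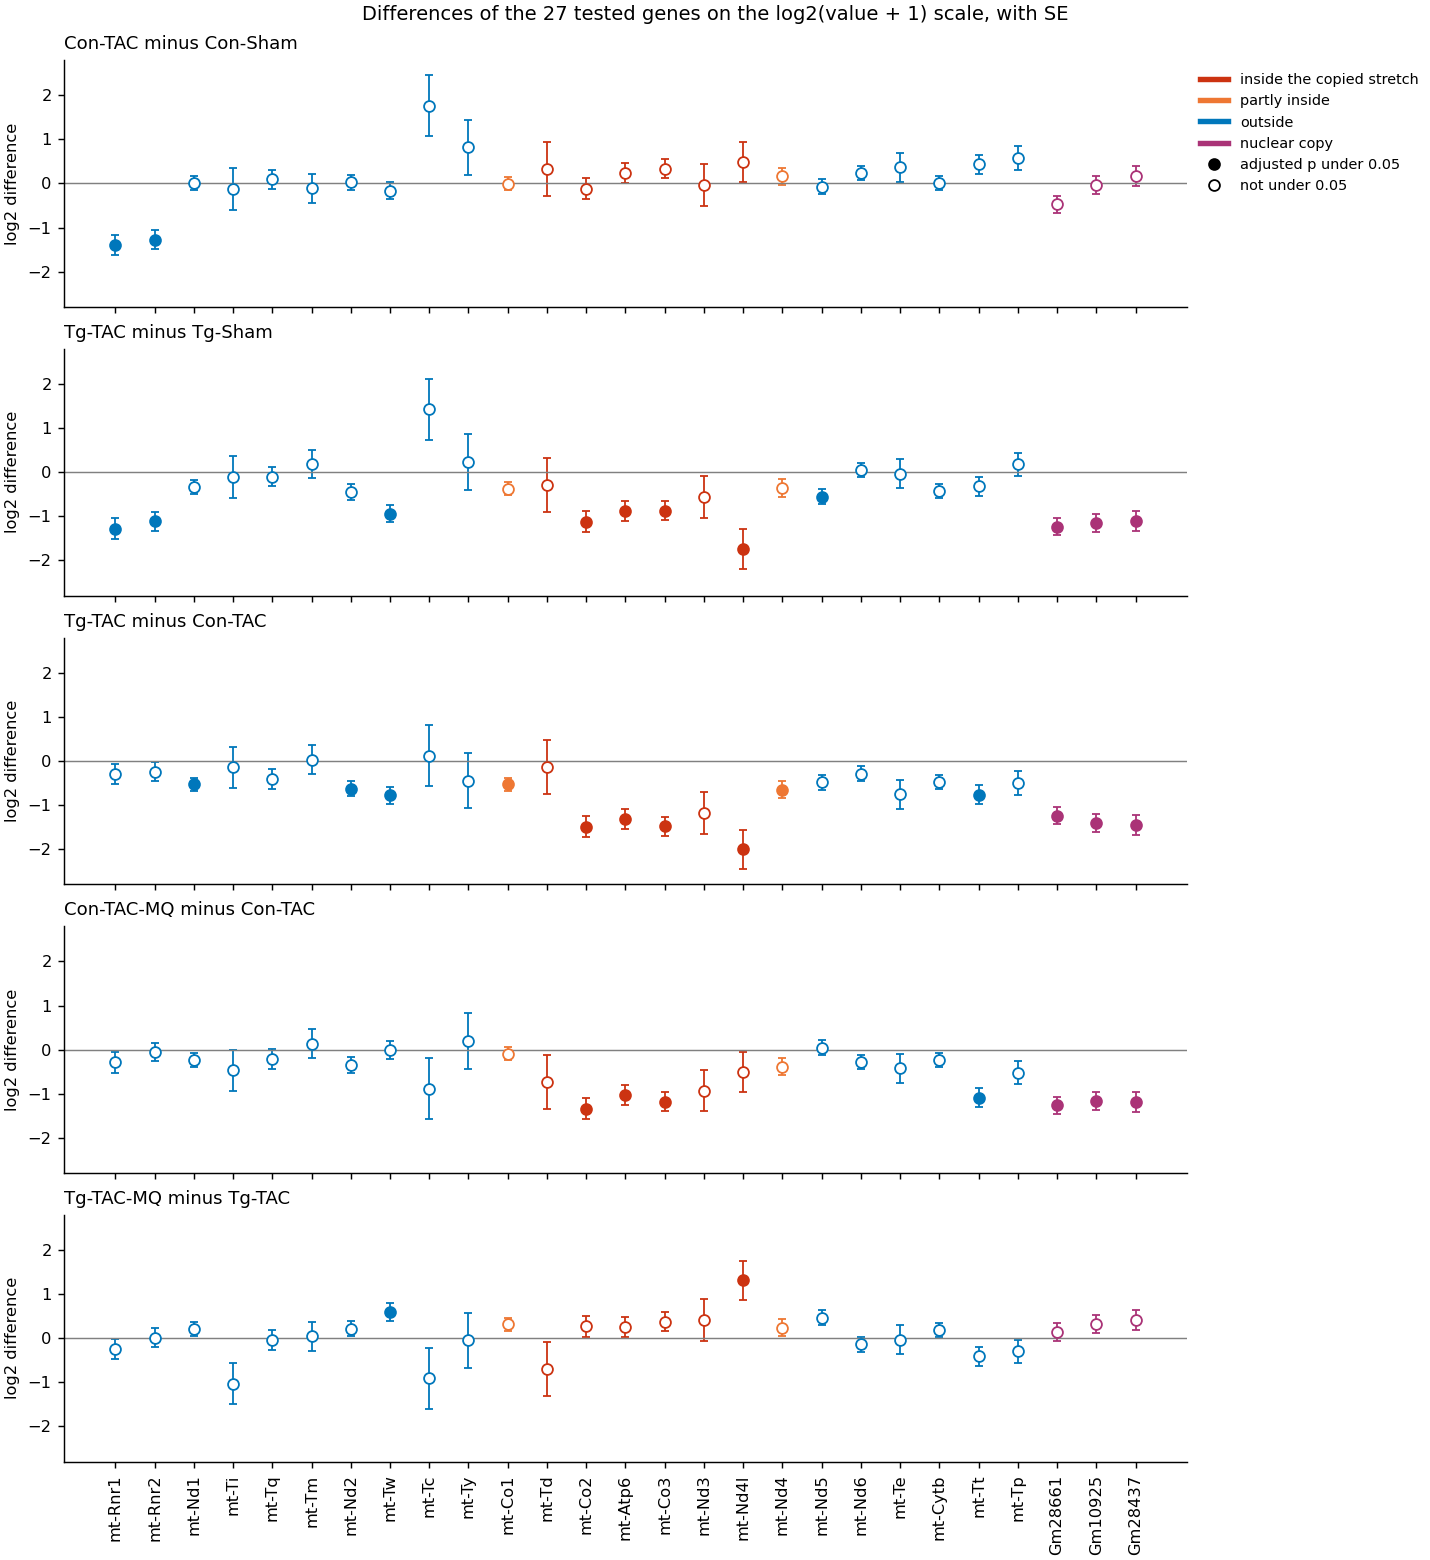
Log2 differences with SE (limma) of the 27 tested genes in 5 comparisons of 2 groups, with filled points where the adjusted p was under 0.05. The ribosomal RNAs stand lowest in Con-TAC against Con-Sham (-1.40 and -1.28), and genes of the copied stretch and the copies stand lowest in Tg-TAC against Con-TAC and Con-TAC-MQ against Con-TAC.

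The comparisons share groups (Con-TAC enters 3 of them, Tg-TAC 3), so their values for a gene are not independent. Whether the genotypes differed in their response was tested as an interaction. For TAC, no gene of the whole table passed (0% called; by limma, 949 genes had an unadjusted p under 0.05 and the smallest adjusted p was 0.178; 0 by edgeR and 2 by DESeq2), and 6 mitochondrial genes and 3 copies had an unadjusted p under 0.05. For MitoQ, no gene passed either (0% called; limma, 1377 at an unadjusted p under 0.05; 0 by edgeR and 16 by DESeq2). The smallest adjusted p of the MitoQ interaction, 0.0612, was shared by mt-Co3 (log2 1.56 ± 0.31), Gm28437 (1.61 ± 0.32), Gm10925 (1.501 ± 0.29) and Gm28661 (1.40 ± 0.28). DESeq2 called 2 mitochondrial genes and the 3 copies. Without Con-TAC 6, Tg-TAC 2 or Tg-TAC 6 limma also called the 3 copies, with 2, 2 and 3 mitochondrial genes. A lower count in Con-TAC-MQ than in Con-TAC is thus not shown to differ from the change in cSirt4-Tg hearts.

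The nuclear genes that copy, transcribe and process mitochondrial DNA and RNA were read from 6 lists with 63 tested genes. Apart from higher calls in Tg-TAC-MQ against Tg-TAC, the share of them called was near or below that of all genes tested. In Con-TAC against Con-Sham 1 rose and 2 fell (5.3% of all genes called), with a median log2 difference of -0.05, beside 0.01 over all genes tested. Rexo2, a mitochondrial exoribonuclease, rose (0.33, limma adjusted p = 0.0435), while Ppargc1b, a coactivator of mitochondrial biogenesis (-0.69, limma adjusted p = 0.0367), and Dguok, a mitochondrial deoxynucleoside kinase (-0.40, limma adjusted p = 0.0380), fell. In Tg-TAC against Tg-Sham 1 rose and 6 fell (16.7% of all genes called), with a median of -0.15, beside -0.01. Rexo2 rose (0.42), and the lower genes included Lrpprc, which stabilises mitochondrial messenger RNAs (-0.55, 4827 in Tg-TAC and 6646 in Tg-Sham), Ppargc1a, the coactivator best known for mitochondrial biogenesis (-0.81), Gabpa, a transcription factor of nuclear respiratory genes (-0.31), and Mpv17, a protein of the inner membrane needed to keep mitochondrial DNA (-0.58). Their limma adjusted p was 0.00451, 0.0164, 0.00494, 0.0151 and 0.00351. In Tg-TAC against Con-TAC 0 rose and 3 fell (6.48% of all genes called), with a median of -0.19, beside 0.00: Tfb2m, a factor of mitochondrial transcription initiation, had 792 ± 63.6 in Tg-TAC and 1015 ± 81.3 in Con-TAC without overlap (-0.36, limma adjusted p = 0.0130), and Ptcd2 (-0.44) and Fastkd3 (-0.47), RNA-binding proteins of mitochondria, fell as well (limma adjusted p = 0.0313 and 0.0398). Tg-Sham against Con-Sham had no call in the lists (limma), with a median of -0.10.

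With MitoQ in cSirt4-Tg hearts several of these nuclear genes rose. In Tg-TAC-MQ against Tg-TAC 10 of the 63 rose and 2 fell, with a median of 0.17, beside -0.00 over all genes tested and 9.89% of all genes called higher and 7.44% lower. Ppargc1a averaged 2637 ± 199 in Tg-TAC-MQ and 1646 ± 634 in Tg-TAC (0.75, limma adjusted p = 0.00673), and Gabpa (0.38, limma adjusted p = 0.00421) and Ppargc1b (0.72, limma adjusted p = 0.0117) rose too. Lrpprc (0.50, limma adjusted p = 0.0249), Twnk, the mitochondrial DNA helicase (0.39, limma adjusted p = 0.0336), and Polg, the catalytic subunit of the mitochondrial DNA polymerase (0.21, limma adjusted p = 0.0264), rose, whereas Rexo2 fell by 0.44 (limma adjusted p = 0.00259). In Con-TAC-MQ against Con-TAC 1 rose and 1 fell (3.23% of all genes called), with a median of -0.05, beside 0.01: Lig3, the DNA ligase of mitochondria (0.27, limma adjusted p = 0.0443), and Slirp, the partner of Lrpprc (-0.45, limma adjusted p = 0.0415). Tg-TAC-MQ against Con-TAC-MQ had no call in the lists. In Tg-TAC-MQ against Tg-TAC 2 of 12 cardiomyocyte markers rose and 3 of 10 fibroblast markers fell, and their part was not tested.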

How the data were processed

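Total RNA was isolated from snap-frozen whole hearts (RNeasy Fibrous Tissue kit) and sequenced after NEB Ultra II Directional library preparation, per the labels' protocols. The submitters' processing notes name Trim Galore, STAR and the build mm39. Their versions, the counter, its strand setting and its rule for reads with several matches are not stated. The authors deposited a signal for each gene and library, the normalized read count. Dividing by the step of its library turned 100% of the values into whole reads (tolerance 0.01 read), 14.8 M to 60.01 M in all per library. Groups came from the labels.

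The log2 of each value plus a pseudocount of 1 went into limma 3.58.1 (R 4.3.3), which fitted the 6 group means to all 36 libraries with 30 residual degrees of freedom, trend and robust moderation and two-sided tests. A gene was tested if 6 or more libraries had 10 or more (16275 genes), and p-values were adjusted over all of them by Benjamini-Hochberg with a threshold of 0.05. Fold changes on this scale understate the change of low genes. The 7 comparisons of 2 groups and 2 interactions are contrasts of this fit. A p-value sets a difference of group means against the spread between these mice, which was pooled over all 6 groups. Shares are percentages of the sum over all listed genes. Overlap between groups was looked at for members and named genes only, and its share over all genes tested was not counted. The rule for naming took every mitochondrial gene and copy, with values per library for the protein-coding genes, ribosomal RNAs, copies and the 3 tRNA genes with the highest mean, and up to 3 called genes per direction from each of 6 lists. The fit was tested on simulated data. Members, lists and tests were chosen with earlier results of these data known. Alternatives were other pseudocounts, filters and scalings, a replicate block, the class of the name number, subsets of libraries, and the recovered reads in edgeR 4.0.16 and in DESeq2 1.42.0. Sequences came from GENCODE release M21 by gene name; chromosome positions are those of the deposited table. No 2 libraries of a group were copies of each other.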

Additional observations from a re-analysis of the deposited data

Results flagged for a closer look

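In 144 groups of 6 libraries (24 measures in 6 groups), 17 values lay so far from the other 5 libraries of their group that the gap, divided by the group's range, passed the 95% critical value of Dixon's test; chance gives this in about 1 of 20 groups. The values below are normalized counts unless a percentage is given.

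Con-TAC 6 held 5 of these values, all low: 320 for mt-Co2 (498 to 591 in the other 5), 185 for mt-Co3 (317 to 379), 763137 for mt-Cytb (1153580 to 1383420), 328 for Gm28437 (596 to 675) and 334 for Gm28661 (567 to 660). Con-TAC-MQ 3 held 3 low values: 1461210 for mt-Co1 (2188190 to 2505380), 136 for mt-Co2 (210 to 228) and 163 for Gm28437 (264 to 296). Tg-TAC 6 held 3 high values: 509984 for mt-Rnr2 (163471 to 263877), 19765 for mt-Nd6 (7017 to 11496) and 2.17% of the total for mitochondrial ribosomal RNA (0.820% to 1.31%).

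Tg-TAC 2 held high values of mt-Co3, 227 (73.7 to 121), and Gm10925, 346 (135 to 200). Tg-Sham 5 held high values of mt-Co2, 648 (330 to 411), and mt-Atp6, 199 (101 to 127). Con-Sham 2 had a low value of mt-Nd4, 325286 (503660 to 606046), and Con-TAC-MQ 1 a high value of mt-Tp, 385 (141 to 200).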

How the results depend on the processing

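No called gene changed direction under any alternative. The difference in mitochondrial share, which has no test, changed sign in Con-TAC against Con-Sham with protein-coding genes only (1.55 points) and without Con-Sham 4, 5 or 6 or Con-TAC 2 or 6 (leaving out 1 library gave -1.22 to 0.80), and in Tg-Sham against Con-Sham with name numbers 7 to 14 (1.60 in place of -0.84). Among calls of single genes, 400 of 443 kept their side of the threshold under other settings and 357 of 420 when 1 library was left out. Replicate numbers do not pair the libraries (90 pairs, r from -0.483 to 0.311, 13 over 0.1); a replicate block gave 1 call in place of 2 in Tg-TAC-MQ against Tg-TAC and changed no other count by over 1.5 times. In Tg-TAC-MQ against Tg-TAC the 2 calls became 1 with pseudocount 10, 0 without a filter, 4 with the same total outside the mitochondrial genome, 7 (and 1 copy in place of 0) with the name number class, 0 with only the libraries compared, 0 with edgeR and 1 with DESeq2. In the MitoQ interaction, where limma called none, the same total outside the mitochondrial genome gave 1 gene and 3 copies, the name number class 3 and 3, and DESeq2 2 and 3. In Con-TAC-MQ against Con-TAC the name number class gave 0 of 4 genes and 0 of 3 copies, and only the libraries compared gave 2 genes. With only the libraries compared, Tg-TAC against Tg-Sham had 2 of 8 genes, Tg-Sham against Con-Sham 1 copy in place of 0, and Tg-TAC against Con-TAC 0 of 10 genes and 0 of 3 copies. Only name numbers 7 to 14 gave 17 genes in Tg-TAC against Con-TAC, where the share of all genes called was not counted. They gave a share difference of 2.94 points in place of -0.22 in Con-TAC against Con-Sham. This setting could not be run for MitoQ. With the name number class, the MitoQ comparisons within a genotype rest on Con-TAC 6, the only library without MitoQ named 20 or 21. Their counts under that setting cannot tell MitoQ from the number. The causes were not tested.

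Leaving out 1 library at a time gave 4 to 14 mitochondrial genes in Tg-TAC against Con-TAC: 4 without Con-TAC 3 or 5 or Tg-TAC 1 or 4, 5 without Con-TAC 1 or Tg-TAC 3, 6 without Con-TAC 4 or Tg-TAC 5, and 14 without Tg-TAC 6. It gave 0 to 4 genes and 0 to 1 copies (1 without Tg-TAC 2) in Tg-TAC-MQ against Tg-TAC, 0 to 3 genes and 0 to 3 copies in the MitoQ interaction, 7 to 11 genes in Tg-TAC against Tg-Sham, 3 to 4 in Con-TAC-MQ against Con-TAC and 2 throughout in Con-TAC against Con-Sham. Without 4 libraries that earlier results had set apart (Con-Sham 2, Con-TAC-MQ 5, Tg-TAC 4, Tg-TAC 6), counts were within 1.5 times of those reported. Giving genes outside the mitochondrial genome the same total moved the median of all genes by 0.10 on the log2 scale in Con-TAC against Con-Sham and in Tg-TAC-MQ against Tg-TAC. Values of mt-Nd3, mt-Nd4l and mt-Atp8 rest on few reads, which limits the precision of their differences.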

Other observations

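The ratio of the ribosomal RNAs varied by group. mt-Rnr1 had 27.03% ± 0.979 of the count of mt-Rnr2 in Tg-TAC-MQ (25.7% to 28.0%), 28.5% ± 1.78 in Con-TAC-MQ (26.1% to 30.4%), 32.4% ± 3.12 in Tg-TAC (28.3% to 37.7%), 33.6% ± 3.60 in Con-TAC (28.0% to 36.9%), 36.3% ± 3.07 in Tg-Sham (33.0% to 40.4%) and 36.6% ± 3.98 in Con-Sham (32.4% to 42.2%; SD, n = 6 each). Each MitoQ library lay below each sham library in this ratio. MitoQ and the library name number cannot be told apart, and no test was made.

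mt-Co1 made up a larger part of the mitochondrial reads in the MitoQ libraries than in sham libraries, with 35.9% ± 1.11 in Tg-TAC-MQ, 36.6% ± 1.15 in Con-TAC-MQ, 34.3% ± 1.18 in Tg-TAC, 34.8% ± 1.13 in Con-TAC, 31.9% ± 1.37 in Tg-Sham and 32.1% ± 1.57 in Con-Sham. mt-Nd6, on the other strand, made up 0.174% ± 0.0165 in Tg-TAC-MQ, 0.182% ± 0.0326 in Con-TAC-MQ, 0.232% ± 0.0541 in Tg-TAC, 0.195% ± 0.0163 in Con-TAC, 0.161% ± 0.0364 in Tg-Sham and 0.155% ± 0.0375 in Con-Sham. The mitochondrial reads include the ribosomal RNAs, at 5.75% in Tg-TAC-MQ and 6.20% in Con-TAC-MQ, against 11.8% in Tg-Sham and 13.9% in Con-Sham. A lower ribosomal part raises the parts of the other genes, and how much of these differences it makes was not tested.

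Gm29216, the copy of the end of mt-Co1, was not among the 3 copies but lies in the same row. It had 183, 322 and 359 normalized counts in Con-TAC-MQ (lowest, median, highest), against 527, 911 and 943 in Con-TAC, without overlap (log2 -1.49 ± 0.20, limma adjusted p = 0.000113). It fell in Tg-TAC against Con-TAC as well, with 249.6, 372 and 571 in Tg-TAC (-1.14 ± 0.20, limma adjusted p = 0.0017). It was chosen after its values were seen.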
